A study of Mus musculus with 16 samples.

Results

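The ubiquitin-conjugating enzymes (E2s) were followed in NIH3T3 fibroblasts, a mouse embryonic cell line, after exposure to the proteasome inhibitor bortezomib. They were taken as all genes whose symbol starts with Ube2 and a lower-case letter, which gave 37 of the 23356 genes in the table. The rule used names and no measured value. It includes Ube2cbp, named for binding an E2 rather than being one, and it leaves out E2-fold genes with other names such as Cdc34 and Atg3. All cells carried DD-sfGFP, a fusion of superfolder GFP to a domain that is unfolded and degraded unless its ligand S1 is bound, and came, according to the study's methods, from a population sorted for high expression of the fusion. The 16 RNA-seq libraries comprised 4 untreated controls (0 min) and 4 libraries each after 45, 135 and 405 min of bortezomib. The dose was not given in the labels. Vehicle-treated cells at the later times were not analysed here, so drug and elapsed time cannot be told apart. The labels do not say whether the replicates were separate cultures, and p-values measure the spread between these libraries.

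Ubiquitin is attached to proteins in a cascade. An E1 enzyme activates it and passes it to the active-site cysteine of an E2, and the E2, together with an E3 ligase that binds the substrate, transfers it to the substrate or to a growing chain. The E2 often determines which linkage a chain has, and chains of certain linkages send proteins to the proteasome, the complex that bortezomib blocks. Related E2s carry ubiquitin-like proteins such as NEDD8. Ube2c and Ube2s work with the anaphase-promoting complex, the E3 that triggers the exit from mitosis, and transcripts of Ube2c are typically abundant in dividing cells and low in arrested ones.

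The libraries fell into separate classes, which set how the E2 values could be read. Between 570323 and 19930375 fragments were assigned to genes per library. Ribosomal protein genes took over 4% of them in 7 libraries, from 4.25% to 9.42%, and from 0.398% to 1.21% in the other 9. Replicates 1 and 2 of both earlier times and replicates 1, 3 and 4 of the 405 min group made up the 7. None was a control. Olfactory and vomeronasal receptor genes, which fibroblasts do not use, made up 4.14% to 5.12% of the total in the 9 and only 0.00531% to 2.61% in the 7. The summed level of 10 fibroblast markers was 3440 to 20358 CPM (counts per 1000000 assigned fragments) in the 7 and 259 to 1623 CPM in the 9. Lum, Pdgfrb and S100a4 were the markers at 0 in any library. Across 16 markers of other cell types, the sum was 4.19 to 219 CPM in the 7 and 341 to 635 CPM in the 9. Hspa1b, an inducible Hsp70 gene, was read as a check of the labels. It had 19.7 to 48.8 CPM in the controls and 2834, 1292, 10097 and 5899 CPM in the 4 libraries of 405 min. Replicates 1 to 4 had 71.6, 163, 12.9 and 52.9 CPM at 45 min and 2427, 770, 42.1 and 51.1 CPM at 135 min. Replicates 3 and 4 of both earlier times, which belong to the 9, were thus at or near the level of the controls, and this gene did not tell these 4 libraries labelled as treated from control libraries. The time course of the E2 genes is therefore given in the 7 libraries over 4%, and comparisons with control are given beside the ribosomal protein share.

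E2 genes took a larger share of the fragments in the libraries over 4%. At 45 min the share was 0.527% in replicate 1 and 0.447% in replicate 2. At 135 min it was 0.407% in replicate 1 and 0.438% in replicate 2. The late replicates 1, 3 and 4 had 0.334%, 0.269% and 0.585%. The 405 min libraries held both the lowest and the highest of these 7 values, so the times overlapped. In the 9 other libraries the share was 0.131% to 0.184%, and the 4 controls (0.155% to 0.173%) lay within the range of the 5 treated libraries of the same class. The widest 95% Wilson interval of a share was 0.174% to 0.196%, which covers counting error only. The E2 share thus separated the classes. As no control was over 4%, class and treatment cannot be told apart across them. Within the class at or under 4%, the share did not separate treated libraries from controls. The treated libraries of 45 and 135 min in that class had Hspa1b at or near the level of the controls. The part of the ribosomal protein share in the E2 share was not tested.

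**Figure D1:**
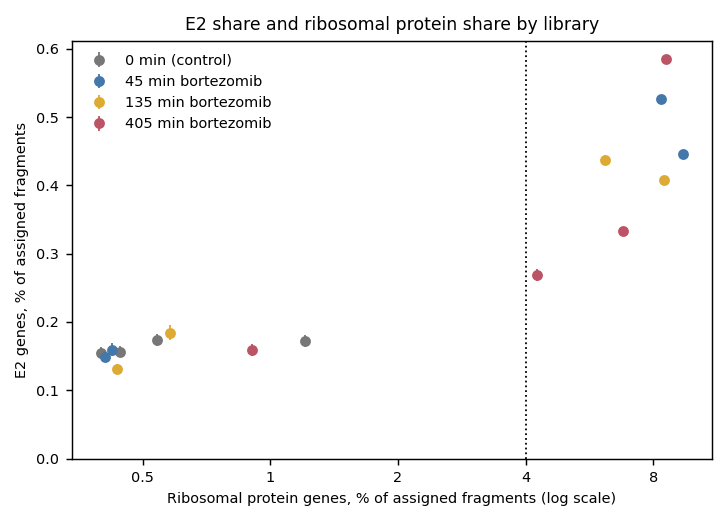
Share of assigned fragments on the 37 E2 genes (y axis, %) against the share on ribosomal protein genes (x axis, %, log scale). Each point is 1 library, bars are 95% Wilson intervals, colours are times and the dotted line marks 4%. The 7 libraries right of the line lie between 0.269% and 0.585%, and the 9 left of it between 0.131% and 0.184%.

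The classes also differed in how unequal the E2 genes were. Levels between genes are compared per kilobase of exon, which was known for 33 of the 37. In the 7 libraries the median E2 gene had 13.2 to 21.7 CPM per kilobase, against 0.105 to 5.28 for the median of all genes with a length. In the 9 others the median E2 gene had 8.94 to 12.8, the median of all genes 0.982 to 8.52 and the median receptor gene up to 9.52 CPM per kilobase. Ube2d3 alone accounted for 14.6% to 31.2% of all E2 fragments in the 7, but for 1.65% to 8.92% in the 9. Of the 37 members, 7 were higher in every library over 4% than in any other library, on the CPM scale, where 4.23% of all genes were. They were Ube2a, Ube2d2a, Ube2d3, Ube2j1, Ube2k, Ube2l3 and Ube2n. Ube2d2b alone was lower in all 7, where 5.96% of all genes were. These counts describe libraries classed by composition and give no effect of bortezomib.

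**Figure D2:**
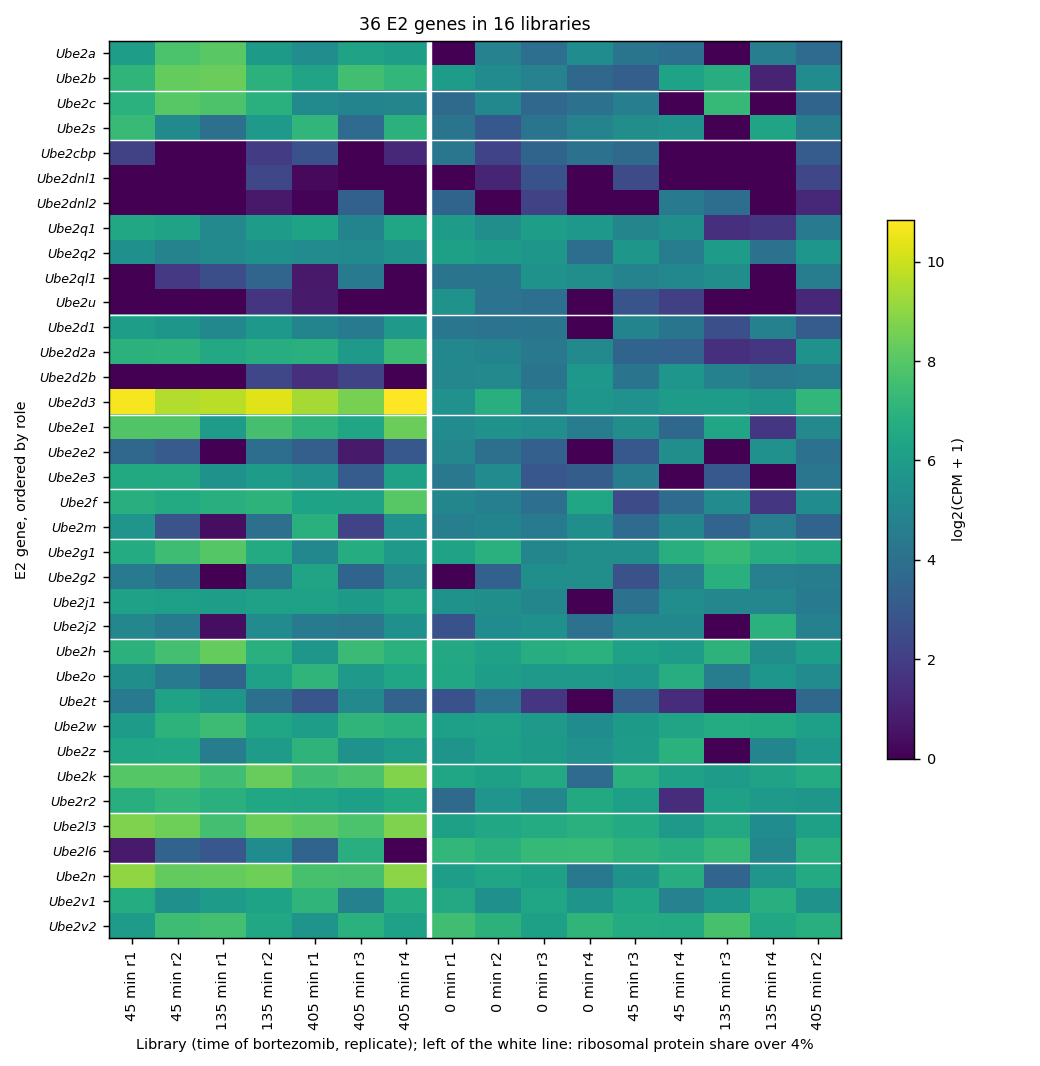
Levels of 36 of the 37 E2 genes (rows, grouped by role with white lines between groups) in the 16 libraries (columns), as log2(CPM + 1). The 7 libraries over 4% stand left of the thick white line, where Ube2d3 is the brightest row and Ube2d2b, Ube2u and Ube2dnl1 are near 0.

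In the libraries over 4% the highest E2 transcript was Ube2d3, an enzyme that works with many RING ligases. Its median level was 318 CPM per kilobase (range 146 to 682). Its lowest value lay above the highest value of the next gene by median, Ube2n (78.9, range 51.1 to 135). That lowest value was below the highest values of Ube2a (159), Ube2s (159) and Ube2b (155). Ube2b (66.7), Ube2l3 (59.9), Ube2s (58.1), Ube2k (48.2), Ube2c (44.2) and Ube2e1 (44.2) came next in order of the median CPM per kilobase. The ranges of these neighbours overlapped, and their order is not resolved. At the other end were Ube2e2 (1.98), Ube2ql1 (0.917), Ube2cbp (0.728) and Ube2u (0), all with at least 1 library at 0 counts. Ube2l6, the E2 for the interferon-induced modifier ISG15, was the highest member in the 9 other libraries (median 64.4 CPM per kilobase) and ranked 28 of 33 in the 7. Ube2d2a, Ube2d2b, Ube2dnl1 and Ube2dnl2 had no exon length here. Ube2d2a and Ube2d2b are close paralogs, and how the counting split their reads is not given in the sources used here.

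The time course was tested with edgeR's quasi-likelihood test on the 7 libraries, in which 8605 genes had at least 1 count in every library. Of the 37 E2 genes, 28 met this filter. The other 9 (Ube2cbp, Ube2d2b, Ube2dnl1, Ube2dnl2, Ube2e2, Ube2g2, Ube2l6, Ube2ql1 and Ube2u) were at 0 in at least 1 of the 7. No E2 gene was called at an adjusted p under 0.05 in any of the 3 comparisons, where 0% of all tested genes were called, higher or lower. The dispersion of 0.466 corresponds to a coefficient of variation of 68.2% between replicates. In simulated counts with that dispersion for every gene, this test recovered 0 of 196 tested genes changed 4-fold for 405 against 45 min. At this uniform spread it thus missed changes of this size. Single genes can vary less or more than the common value.

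At an unadjusted p under 0.05, 1 of the 28 E2 genes was lower at 405 than at 45 min, against 4.15% of all tested genes, and none was higher, against 3.01%. The same gene was the only one lower at 405 than at 135 min (1.86% of all genes), with none higher (1.46%). None differed in either direction between 135 and 45 min (1.28% of all genes higher, 0.36% lower). The median log2 fold change of the 28 was -0.35 for 135 against 45 min (all genes -0.07), 0.16 for 405 against 135 min (all genes 0.16) and -0.26 for 405 against 45 min (all genes 0.14). Single libraries set the sign of the last of these, which was 0.07 without 405 min replicate 3 and -0.66 without replicate 4, and of the one before it (0.39 and -0.29). These comparisons share libraries, and they are not independent of each other.

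That gene was Ube2c, the E2 that starts ubiquitin chains on substrates of the anaphase-promoting complex. It lies on chromosome 2 at 164595398 to 164604322 (+ strand, mm9). Its level was 118 and 255 CPM at 45 min, 222 and 115 CPM at 135 min, and 34.5, 28.9 and 29.5 CPM at 405 min. The 3 late libraries lay close together and below all 4 earlier ones. The mean was 187 ± 96.4 CPM (SD, n = 2) at 45 min, 168 ± 75.4 CPM (SD, n = 2) at 135 min and 31.0 ± 3.09 CPM (SD, n = 3) at 405 min. The fitted log2 fold change was -2.60 (SE 0.62) for 405 against 45 min, 6.06-fold lower, with an unadjusted p of 0.00169 and an adjusted p of 0.69 by edgeR. For 405 against 135 min it was -2.38 (SE 0.62; adjusted p = 0.909 by edgeR), and for 135 against 45 min -0.22 (SE 0.67).

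The result for Ube2c depended on the test in part. DESeq2 called it for 405 against 45 min (log2 fold change -2.59, adjusted p = 0.0327), among 62 of 8600 genes (0.721%). Without 45 min replicate 2, the edgeR estimate was -1.87, and without 45 min replicate 1 it was -3.07. Leaving out 135 min replicate 1 moved the estimate for 405 against 135 min to -1.67. In the class at or under 4%, Ube2c had 11.2 to 32.5 CPM in the controls, 23.8 and 0 CPM at 45 min, 151 and 0 CPM at 135 min and 10.4 CPM at 405 min, which overlap. A count of 0 allows up to 4.81 CPM (3 counts) in the 45 min library and 3.41 CPM in the 135 min library that had none. Fewer cells of a type or phase and less RNA per cell cannot be told apart in bulk samples.

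The promoter sequences of Ube2c, of its partner Ube2s and of Ube2t, the member with the next lowest fitted change, are shown so that the genes can be compared upstream. Each line gives the 250 bases before the RefSeq transcription start (GRCm38.p6), 5′ to 3′ on the strand of the gene. Capitals mark CCAAT or its reverse complement ATTGG, and TTTGAA or its reverse complement TTCAAA, the core of the cell cycle genes homology region. The regions are chr2:164769679-164769928 (+) for Ube2c, chr7:4812341-4812590 (-) for Ube2s and chr1:134962315-134962564 (+) for Ube2t.
Ube2c: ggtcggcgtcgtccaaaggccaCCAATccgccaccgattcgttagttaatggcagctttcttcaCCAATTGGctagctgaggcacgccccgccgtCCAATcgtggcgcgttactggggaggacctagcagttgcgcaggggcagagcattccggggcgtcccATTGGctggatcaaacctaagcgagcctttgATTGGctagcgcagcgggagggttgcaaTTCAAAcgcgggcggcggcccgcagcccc
Ube2s: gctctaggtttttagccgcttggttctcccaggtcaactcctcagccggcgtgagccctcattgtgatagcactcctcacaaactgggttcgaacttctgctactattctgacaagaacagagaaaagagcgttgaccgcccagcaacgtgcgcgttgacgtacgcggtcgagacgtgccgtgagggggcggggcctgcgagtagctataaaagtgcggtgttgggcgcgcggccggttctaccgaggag
Ube2t: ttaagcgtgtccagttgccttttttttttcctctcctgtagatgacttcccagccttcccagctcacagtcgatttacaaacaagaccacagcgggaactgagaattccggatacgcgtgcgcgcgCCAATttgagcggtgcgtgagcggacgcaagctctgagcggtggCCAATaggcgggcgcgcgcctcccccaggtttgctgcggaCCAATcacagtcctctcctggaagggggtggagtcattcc
The Ube2c window held 6 matches to CCAAT or ATTGG, with a pair of them overlapping in 1 run, and TTCAAA starting at -29. The Ube2t window held CCAAT at -124, -80 and -40, and the Ube2s window held neither motif. Promoters were matched for 30 members by symbol. Over the window from 250 bases before to 50 after the start, CCAAT on either strand was in 9 of the 41 promoters of these members and in 37.4% of 32851 promoters. TTTGAA on either strand was in 4 of 41 (9.76%) against 17.9%. The heat shock element core GAANNTTC was in 0 of 41 (7.86% of all promoters), and the antioxidant response element core TGACNNNGC, on either strand, was in 6 of 41 (14.6% against 12.4%). A match describes letters and is not a site.

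Ube2s, which extends chains on the same complex, did not follow Ube2c. It had 157 and 34.2 CPM at 45 min, 15.2 and 57.4 CPM at 135 min, and 139, 13.0 and 125 CPM at 405 min. Each time held libraries far apart, and the ranges overlapped. The fitted log2 fold change for 405 against 45 min was 0.02 (SE 0.97).

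**Figure D3:**
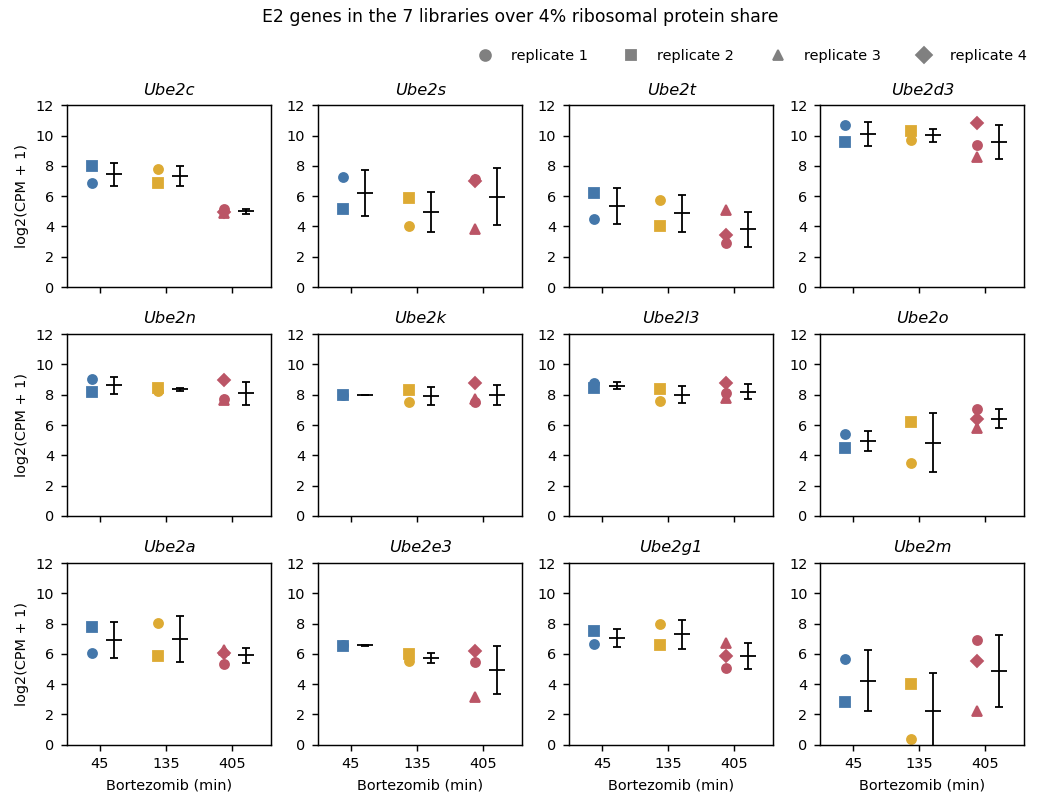
Levels of 12 E2 genes in the 7 libraries over 4% (y axis, log2(CPM + 1); x axis, minutes of bortezomib). Symbols are libraries by replicate number, and black bars are the mean ± SD (n = 2, 2 and 3). Ube2c at 405 min (28.9 to 34.5 CPM) lies below every earlier library, and Ube2m spreads from 0.317 to 117 CPM.

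Ube2o was the only E2 gene with every 405 min library above both 45 min libraries, where 9.24% of all genes tested were higher in this way. It encodes a large enzyme with E2 and E3 activity that acts on unassembled proteins. Its level was 41.6 and 21.1 CPM at 45 min, 10.1 and 72.7 CPM at 135 min and 135, 55.6 and 81.8 CPM at 405 min. The fitted change was 1.54 (SE 0.80, unadjusted p = 0.0825, adjusted p = 0.692 by edgeR) and did not pass the test. In the other direction, Ube2c, Ube2e3 and Ube2r2 had every 405 min library below both 45 min libraries, 3 of 28, where 15.9% of all genes did. Against 135 min, Ube2c alone was below in this way (11.9% of all genes) and no E2 gene above (4.78%). Between 135 and 45 min, 6 were below (13.3% of all genes) and 1, Ube2f, above (19.8%).

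Ube2t, the E2 of the Fanconi anaemia pathway of DNA crosslink repair, had 21.8 and 73.7 CPM at 45 min, 52.9 and 15.1 CPM at 135 min, and 6.38, 33.2 and 9.93 CPM at 405 min. Replicate 3 at 405 min lay above 45 min replicate 1, so the times overlapped. The fitted change for 405 against 45 min was -1.61 (SE 0.93, adjusted p = 0.694 by edgeR), and without 45 min replicate 2 it was -0.42.

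The Rad6-type enzymes Ube2a and Ube2b act in DNA damage tolerance and in the ubiquitylation of histone H2B. Ube2a had 66.0 and 214 CPM at 45 min, 265 and 58.0 CPM at 135 min and 38.7, 75.8 and 66.8 CPM at 405 min. Ube2b had 135 and 310 CPM at 45 min, 330 and 125 CPM at 135 min and 80.3, 186 and 142 CPM at 405 min. In both genes 45 min replicate 2 and 135 min replicate 1 were the high libraries, and the times overlapped. The fitted log2 fold changes for 405 against 45 min were -1.21 (SE 0.80) for Ube2a and -0.71 (SE 0.71) for Ube2b. Without 45 min replicate 2 the change of Ube2a was -0.06.

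Of the Ube2d genes, Ube2d3 (chromosome 3, 135101261 to 135130142, + strand, mm9) had 1643 and 764 CPM at 45 min, 850 and 1281 CPM at 135 min and 664, 391 and 1824 CPM at 405 min. The highest and the lowest of the 7 values both came from 405 min. Its mean was 1204 ± 621 CPM (SD, n = 2) at 45 min and 960 ± 761 CPM (SD, n = 3) at 405 min, and the fitted change was -0.23 (SE 0.85). Ube2d2a had 123 and 127, 91.3 and 107, and 118, 56.3 and 167 CPM at the 3 times, with a change of -0.09 (SE 0.62). Ube2e1 and Ube2e3 carry an N-terminal extension before the same catalytic fold. Ube2e1 had 239.1 and 239.5 CPM at 45 min, 61.5 and 197 CPM at 135 min and 130, 85.2 and 342 CPM at 405 min. Ube2e3 had 94.2 and 92.3 CPM at 45 min, 44.7 and 62.1 CPM at 135 min and 43.5, 7.94 and 72.4 CPM at 405 min, with a change of -1.09 (SE 0.78) that was -0.61 without 405 min replicate 3.

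For lysine-linked chains, Ube2n is the enzyme that builds the non-degradative chains of signalling and repair together with the inactive variants Ube2v1 and Ube2v2, and Ube2k and Ube2r2 build degradative chains. Ube2n had 521 and 296 CPM at 45 min, 305 and 346 CPM at 135 min and 207, 198 and 496 CPM at 405 min. Ube2k had 250.4 and 249.2 CPM at 45 min, 180 and 320 CPM at 135 min and 182, 208 and 435 CPM at 405 min. Neither separated the times, and the fitted changes for 405 against 45 min were -0.37 (SE 0.69) and 0.20 (SE 0.66). Ube2v1 had 103 and 42.7 CPM at 45 min, 59.9 and 77.8 CPM at 135 min and 134, 26.0 and 103 CPM at 405 min. Ube2r2 had 113 and 143 CPM at 45 min, 118 and 88.0 CPM at 135 min and 81.4, 67.9 and 94.7 CPM at 405 min, with a change of -0.63 (SE 0.55).

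Ube2l3 serves HECT and RBR ligases, which take ubiquitin onto a cysteine of their own. It had 432 and 352 CPM at 45 min, 192 and 336 CPM at 135 min and 272, 219 and 430 CPM at 405 min, and its change for 405 against 45 min was -0.31 (SE 0.62). Ube2l6 was 0.707 and 9.99 CPM at 45 min, 6.66 and 37.5 CPM at 135 min and 10.1, 108 and 0 CPM at 405 min, and was not tested. Among these 7 libraries the highest Ube2l6 value was in 405 min replicate 3, which also had the highest receptor share (2.61%).

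The E2s of NEDD8, the modifier that activates cullin ligases, differed in their spread. Ube2f had 109 and 98.2 CPM at 45 min, 114 and 128 CPM at 135 min and 77.4, 75.1 and 260 CPM at 405 min. Ube2m had 49.2 and 5.89 CPM at 45 min, 0.317 and 15.1 CPM at 135 min and 117, 3.61 and 44.3 CPM at 405 min. The Ube2m value of 135 min replicate 1 was 1 count. Its fitted change was 3.06 (SE 1.56, adjusted p = 0.909 by edgeR) for 405 against 135 min and 1.02 (SE 1.40) for 405 against 45 min.

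Among the enzymes of ER-associated degradation, Ube2j1, which is anchored in the ER membrane, had the narrowest range for its level among the 28 tested members. It had 73.2 and 67.8 CPM at 45 min, 64.4 and 73.5 CPM at 135 min and 71.6, 58.5 and 78.5 CPM at 405 min, and its fitted change for 405 against 45 min was 0.00 (SE 0.53). Ube2g1 had 99.3 and 178 CPM at 45 min, 248 and 96.2 CPM at 135 min and 31.9, 104 and 56.2 CPM at 405 min, with a change of -1.13 (SE 0.71) that was -0.60 without 45 min replicate 2. Ube2h, a partner of the CTLH ligase, had 122 and 193, 305 and 117, and 52.9, 166 and 119 CPM at the 3 times. Ube2w, which attaches ubiquitin to protein N termini, had 59.9 and 126, 173 and 81.9, and 64.4, 134 and 118 CPM. Ube2q1 had 85.7 and 74.3, 33.6 and 63.4, and 76.8, 28.9 and 83.4 CPM, and Ube2q2 had 41.8 and 27.3, 34.6 and 41.8, and 36.5, 35.4 and 45.5 CPM. Neither of the Ube2q genes separated 405 from 45 min.

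**Figure D4:**
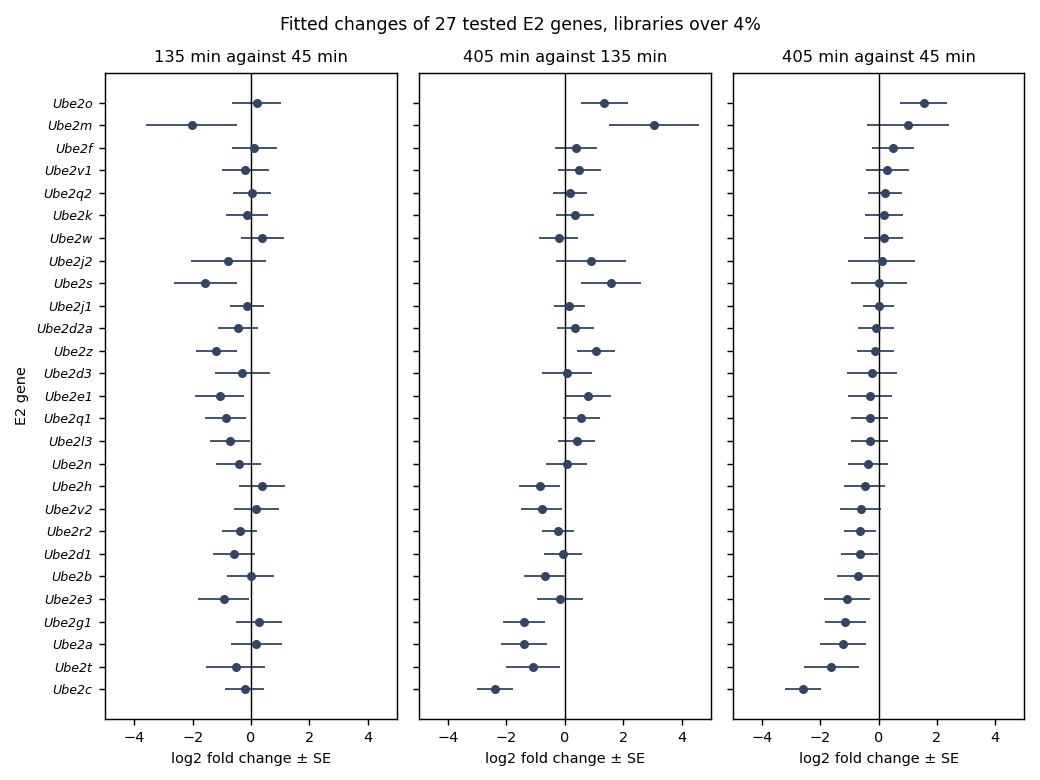
Fitted log2 fold changes of 27 of the 28 tested E2 genes in the 7 libraries over 4% (x axis, with the SE as bars) for 135 against 45 min, 405 against 135 min and 405 against 45 min, ordered by the last. Ube2c is lowest in the last 2 panels (-2.38 and -2.60), and Ube2m is highest for 405 against 135 min (3.06) with an SE of 1.56.

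The replicates of a time differed from each other along the GC content of the transcripts. The values given here are correlations across 27 E2 genes with a known GC content, which share libraries and are not independent. The difference in log2(CPM + 1) between 45 min replicates 2 and 1 had r = -0.64 with GC content, that between 135 min replicates 2 and 1 had r = 0.61, and those of 405 min replicates 3 and 4 against replicate 1 had r = -0.70 and -0.69. Between 405 min replicates 4 and 3 it had r = 0.44. Over all 8006 tested genes with a GC content the values were -0.27, 0.28, -0.21, -0.53 and -0.10. Ube2m, the most GC-rich transcript tested (63.4%), differed by -2.86 on this scale in 45 min replicate 2 from replicate 1 and by -4.68 in 405 min replicate 3 from replicate 1. The GC-rich Ube2s (58.5%) and Ube2o (58.2%) lay on the same side, and AU-rich Ube2a (41.2%) on the other. Not every member followed its GC content. AU-rich Ube2d3 (38.5%) lay on the side of Ube2m, with -1.10 and -0.76 in the same pairs of 45 and 405 min. Some of these differences rest on few counts. Ube2m had 5 counts in 405 min replicate 3, and Ube2m and Ube2j2 each had 1 count in 135 min replicate 1. Ube2c has a GC content of 51.4%. With the GC slope of each library as a covariate, chosen after seeing the data, Ube2c was -1.97 for 405 against 45 min (unadjusted p = 0.0238, adjusted p = 0.9996 by edgeR), Ube2t was 0.02, Ube2a was 0.31 and Ube2o was 0.74.

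**Figure D5:**
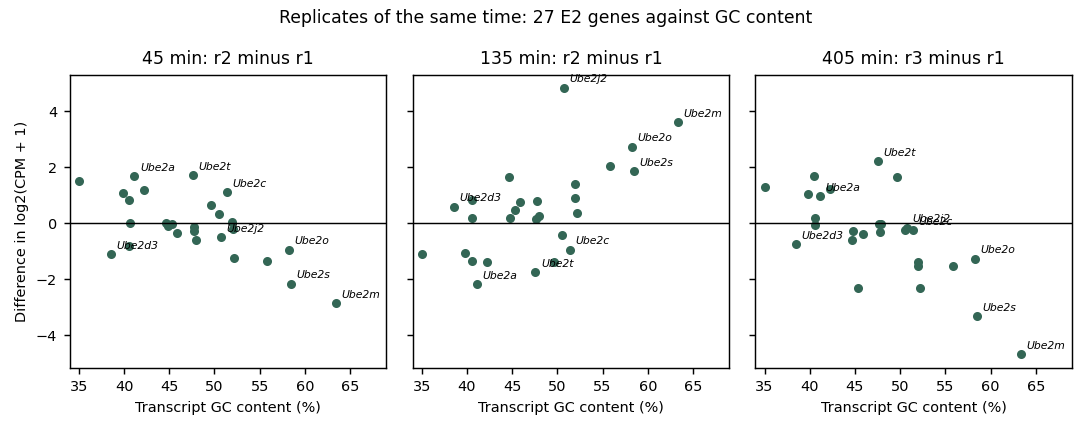
Difference in log2(CPM + 1) between replicates of the same time (y axis) against the GC content of the transcript (x axis, %) for 27 E2 genes in libraries over 4%. The slope is downward for 45 min (r = -0.64) and 405 min (r = -0.70) and upward for 135 min (r = 0.61), with Ube2m at the GC-rich end of each panel.

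No control exceeded 4%, so the comparisons with control were fitted to all 16 libraries and, as an alternative, to the 9 at or under 4%. Of the 5030 genes with a count in every library, 19 were E2 genes, and the other 18 were at 0 somewhere, Ube2c in 2 libraries of the class at or under 4%. No E2 gene and 0% of all genes passed the adjusted threshold at 45, 135 or 405 min. At an unadjusted p under 0.05, 4 of 19 were higher at 45 min (12.1% of all genes), 3 at 135 min (7.83%) and 4 at 405 min (14.5%), and none was lower (0.775%, 1.35% and 1.51% of all genes). The median log2 fold change of the 19 was 1.04, 1.05 and 1.06 at the 3 times, against 0.14, 0.16 and 0.11 for all genes. With the log2 ribosomal protein share as a covariate these medians were -0.08, -0.24 and -0.09. In the 9 libraries at or under 4%, where 21 E2 genes were tested with 5 residual degrees of freedom, they were -0.27, -0.49 and -0.08, and the positive medians over all libraries were not seen. The treated libraries of that fit at 45 and 135 min are the 4 with Hspa1b at or near the level of the controls, and 405 min is 1 library, taken to vary like the other groups. No E2 gene passed the adjusted threshold in it. At an unadjusted p under 0.05, no E2 gene was called at 45 min (0.669% of all genes higher, 1.94% lower) or 405 min (0.215% and 0.347%). At 135 min 2 were lower (5.92% of all genes), Ube2q1 with -4.73 (SE 0.89, adjusted p = 0.0876 by edgeR) and Ube2d2a with -3.83 (SE 0.96, adjusted p = 0.213), and none was higher (4.4%). Each of these genes had 1 and 2 counts in the 135 min libraries of that fit, against 34 to 57 counts of Ube2q1 and 17 to 31 counts of Ube2d2a in the controls. Between the treated times in all 16 libraries, no E2 gene was called either. At an unadjusted p under 0.05, 1 (Ube2m) was higher at 405 than at 135 min (2.01% of all genes) and none lower (1.29%). None differed between 405 and 45 min (0.934% of all genes higher, 0.835% lower) or between 135 and 45 min (0.636% and 0.616%). By DESeq2, which called 24.9% of the genes it kept at 45 min, 26.9% at 135 min and 18.3% at 405 min against control, 2, 1 and 2 E2 genes were called, all higher. At 405 min they were Ube2d3 and Ube2k, and without DESeq2's independent filtering 1 (Ube2d3) with 4.31% of all genes. edgeR's exact test called 8 at 405 min, with 17.6% of all genes.

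The E2 genes with the smallest p for 405 min against control were Ube2d3, Ube2k, Ube2n, Ube2e1, Ube2l3 and Ube2w. Ube2d3 had 44.0, 114, 25.8 and 50.9 CPM in the controls and 142 CPM in 405 min replicate 2, the 1 late library of the controls' class, against 391 or more in the other late libraries. Its fitted change was 4.15 (SE 1.46, unadjusted p = 0.0109, adjusted p = 0.285 by edgeR). The value of 142 CPM lay above all 4 controls, and the libraries of that class had 43.5 and 62.5 CPM at 45 min and 63.1 and 52.2 CPM at 135 min. Ube2k had 81.3, 69.6, 90.9 and 12.7 CPM in the controls and 101 CPM in that library, and Ube2n had 65.5, 82.4, 69.6 and 19.7 CPM in the controls and 96.1 CPM there. Both were thus above every control in it, by less than the controls differed among themselves. Ube2e1 had 36.1, 46.4, 38.1 and 23.1 CPM in the controls and 33.8 CPM in that library, Ube2l3 had 71.1, 85.9, 101 and 117 CPM and 70.2 CPM, and Ube2w had 67.8, 72.0, 55.0 and 37 CPM and 67.6 CPM. These 3 did not exceed their controls within the class. In the fit of the 9 libraries, which called 0.0239% of all genes higher and 0% lower at 405 min, the log2 fold change of Ube2d3 was 1.28 (SE 0.70, unadjusted p = 0.0868, adjusted p = 1 by edgeR), that of Ube2k 0.67 (SE 0.77) and that of Ube2n 0.70 (SE 0.86).

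The genes on either side of the E2s in the cascade were read from lists of the cascade. Of 11 E1 genes, 8 were tested in the 7 libraries. None passed the adjusted threshold, and none had an unadjusted p under 0.05 in any of the 3 comparisons. The main ubiquitin E1, Uba1, had a log2 fold change of 0.78 (SE 1.27) for 405 against 45 min, and Uba6, which charges Ube2z, had -0.48 (SE 0.64). Of 14 ubiquitin and ubiquitin-like genes, 12 were tested and none was called. At an unadjusted p under 0.05, Sumo3 (3.48, SE 1.45) and a polyubiquitin gene, Ubb (2.28, SE 0.99) were higher at 405 than at 45 min (3.01% of all tested genes). Sumo2 (-1.83, SE 0.82) was lower (4.15%). Fau (4.08, SE 1.46) and Ubb (2.51, SE 1.002) were higher at 405 than at 135 min (1.46% of all tested genes). In CPM, 405 min replicate 3 lay below 135 min replicate 2 for both Fau and Ubb, so these times overlapped. For Ubb that library also lay below 45 min replicate 1, so 405 and 45 min overlapped as well. Sumo3 had 57 counts in 45 min replicate 1 and 1 count in 45 min replicate 2. Of 8 E2-fold genes with other names, 7 were tested and none passed either threshold in these comparisons.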

How the data were processed

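RNA was sequenced from 16 libraries of NIH3T3 DD-sfGFP cells, and groups and replicate numbers came from the sample titles. Per the labels, total RNA was extracted with an RNeasy kit and libraries were made with a NuGEN Encore Complete kit, while the study's methods also describe poly(A) selection. The labels name the build mm10 and the study's methods mm9 with RefSeq genes and DNAnexus. The aligner and versions are not given in the sources used here. For each library the authors deposited estimated counts, the raw fragments per gene, and these were rounded to whole counts here. Scaled fragments and FPKM values beside them were not used. In 1 table, 27 symbols had turned into dates and were restored from the row order. Same-numbered libraries of 45 and 135 min deviated together in 4 of 4 pairs (r from 0.51 to 0.56), with the same numbers over 4% ribosomal protein share at both times. Against control, r was over 0.1 in 3 of 4 pairs at each of these times, and 405 min had 0 of 4 such pairs with control and 2 of 4 with each earlier time. By a limit of r over 0.1 in every pair, the numbers paired 45 with 135 min and no other times, and the labels do not say what a number stands for. No 2 of 120 pairs of libraries held identical values in all genes.

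Counts were tested in R 4.3.3 by the quasi-likelihood method of edgeR (version 4.0.16), using TMM factors, 1 mean per group and genes with at least 1 count in every library of the fit. It was fitted to all 16 libraries (12 residual degrees of freedom) and to the 7 in which symbols Rpl or Rps followed by a digit took over 4% of fragments (4 residual degrees of freedom). Benjamini-Hochberg adjustment ran over all tested genes, and a gene was called at an adjusted p under 0.05. An SE is the fitted log2 change over the square root of its F statistic. CPM is over all assigned fragments, unscaled. Positions, exon lengths and GC content came from GENCODE M1 on NCBIM37 (mm9), which matched 33 members. The fit was tested on simulated counts that held 200 genes with a 4-fold change. With the dispersion set to 0.05, 200 of 200 were recovered over all libraries with 9 false calls, and 197 of 198 in the 7 libraries with 10. At the estimated dispersions, 5 of 183 and 0 of 196 were recovered, with 0 false calls.

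Values are given for the 6 members with the smallest p for 405 against 45 min in the 7 libraries, the 6 with the smallest p for 405 min against control in all libraries, and the 1 or 2 members of each role with the highest mean count. Of the genes this rule covers, 1 member is not reported here. A few others are named as extremes of a range, chosen after their values were seen. The members and lists were chosen with earlier results of these data known. Alternatives were other filters, DESeq2 (1.42.0), RLE factors, the exact test of edgeR, the replicate number as a block, the ribosomal protein share as a covariate, shares of 2% and 6%, leaving out each library, and, added after seeing the data, the 9 libraries at or under 4% with 405 min included. Depth differed 34.9-fold between libraries.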

Additional observations from a re-analysis of the deposited data

Results flagged for a closer look

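Of 108 groups of 4 libraries examined for a single library far from the others (25 E2 genes and 2 library shares, at 4 times), 5 held one by Dixon's criterion. For independent groups, each from a single normal population, chance would give 5.4. These groups share libraries and the treated ones mix the classes, so 5.4 is not a firm expectation for them. All values are on the log2(CPM + 1) scale. Ube2c was 0 in 135 min replicate 4, against 6.86 to 7.80 in the other libraries of that time, and 3.51 in 405 min replicate 2, against 4.90 to 5.15. Both of these libraries were at or under 4% ribosomal protein share. Control replicate 4 was low for Ube2k (3.78, against 6.14 to 6.52), for Ube2n (4.37, against 6.06 to 6.38) and for Ube2j1 (0, against 4.97 to 5.53). Without this library the fitted log2 fold change for 405 min against control was 1.86 for Ube2k (2.28 with it) and 2.13 for Ube2n (2.49 with it).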

How the results depend on the processing

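The 9 counts of called E2 genes were 0 in edgeR's quasi-likelihood test under every filter, factor, covariate, class limit and replicate block tried, and from 0 to 0 when single libraries were left out. Other tests called some. Against control over all libraries, DESeq2 called 2 at 45 min (Ube2d3 and Ube2n), 1 at 135 min (Ube2d3) and 2 at 405 min (Ube2d3 and Ube2k), with 24.9%, 26.9% and 18.3% of the genes it kept called. Without its independent filtering, added after seeing the data, it called 1 at 405 min (Ube2d3). edgeR's exact test called 8 at 405 min against control, with 17.6% of all genes. In the 7 libraries DESeq2 called 1 for 405 against 45 min (Ube2c), also without independent filtering (1). With the ribosomal protein share as a covariate, Ube2e1 (-0.089) and Ube2l3 (-0.39) changed sign for 405 min against control, as they did in the 9 libraries at or under 4% with the 405 min library included, a fit added after seeing the data (-0.084 and -0.41). With the GC slope Ube2t (0.0192) and Ube2a (0.31) changed sign for 405 against 45 min. The cause was not tested. The replicate block changed no call over all libraries. In the 7 libraries, replicates 3 and 4 occur only at 405 min, so with the block that time rests on replicate 1. Ube2c was at -2.58 for 405 against 45 min in that fit. Few residual degrees of freedom remain there, so the lack of calls says little. Without 405 min replicate 4, the deepest library, the fitted change of Ube2d3 against control was 2.92. Depth limits the 9 libraries at or under 4% most, where all E2 genes together had 996 to 2178 fragments per library.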

Other observations

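Within the libraries over 4%, 6 of the 28 tested E2 genes were lower in both 135 min libraries than in both 45 min libraries on the CPM scale (13.3% of all tested genes), namely Ube2d2a, Ube2e1, Ube2e3, Ube2l3, Ube2q1 and Ube2z. Ube2f alone was higher (19.8% of all genes). Ube2z, which takes ubiquitin and FAT10 from the E1 Uba6, had 83.7 and 85.6 CPM at 45 min and 22.8 and 61.0 CPM at 135 min, and the fitted difference was -1.19 on the log2 scale (SE 0.70, adjusted p = 0.997 by edgeR). At 405 min its values were 130, 44.8 and 62.5 CPM and overlapped both earlier times. Ube2v2, whose transcript has the lowest GC content of the members (35.1%), had 62.7 and 177 CPM at 45 min, 194 and 89.5 CPM at 135 min and 47.4, 118 and 73.1 CPM at 405 min. Its 2 highest libraries, 45 min replicate 2 and 135 min replicate 1, were also the 2 highest for Ube2a.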
